A study of Mus musculus with 6 samples.

Results

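The genes described here encode the machinery that brings proteins into mitochondria and folds or degrades them in the matrix. They were chosen by name, as probe sets whose annotated symbol begins with Timm or Tomm or is Samm50, Hspd1, Hspe1, Hspa9, Grpel1, Dnajc19, Pmpca, Pmpcb, Pam16, Dnaja3, Trap1, Lonp1 or Clpp. This gave 34 genes with 66 probe sets, out of 12393 genes with 1 symbol on the array. Dnajc19 was not among the 34, since each of its probe sets also carried the symbol of another gene. A gene was represented by the probe set with the highest mean signal over the 6 arrays.

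The samples were mouse multiple myeloma cells, labelled as malignant plasma cells from bone marrow. In 3 samples the cells had been kept for 12 h in serum-free medium with 100 ng/ml of insulin-like growth factor 1 (IGF-1), and in 3 control samples for 12 h in the same medium without IGF-1. Both groups were therefore deprived of serum, and the controls had no IGF-1 added. Poly(A)-primed, biotin-labelled RNA of each sample was hybridised to 1 Affymetrix array, and each probe set has 1 linear MAS5 signal per array. The labels name no mouse strain or cell line and do not say if replicates came from separate cultures or animals, so the p-values cover only the spread among these samples, and that spread may be technical.

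Nearly all mitochondrial proteins are made in the cytosol and imported. They enter through the TOM complex of the outer membrane, from which the SAM complex takes beta-barrel proteins, small TIM chaperones carry hydrophobic proteins across the intermembrane space, the TIM22 complex inserts carriers, and the TIM23 complex passes proteins with a presequence to the matrix. There an HSP70 motor pulls them in, a peptidase removes the presequence, chaperonins fold them and LONP1 and CLPP degrade those that are damaged. Plasma cells are secretory cells whose malignant forms depend heavily on protein quality control.

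The promoters of 4 of the 5 genes that rose with IGF-1 are shown first, together with that of Hspe1, because Hspd1 and Hspe1, the 2 subunits of the matrix chaperonin, lie head to head. Each is the RefSeq window of 300 bases from 250 before to 50 after the gene's start, written 5′ to 3′ on the gene's strand. Capitals mark matches, on either strand, to the ETS motif CCGGAAG, the half-site TGCGCA of nuclear respiratory factor 1 (NRF1), the CCAAT box CCAAT, the E-box CACGTG, the ATF4-CHOP composite motif TGATGNAA or the heat shock element GAANNTTC.
Timm8b (GRCm38.p6, chr9:50603651-50603950, plus strand): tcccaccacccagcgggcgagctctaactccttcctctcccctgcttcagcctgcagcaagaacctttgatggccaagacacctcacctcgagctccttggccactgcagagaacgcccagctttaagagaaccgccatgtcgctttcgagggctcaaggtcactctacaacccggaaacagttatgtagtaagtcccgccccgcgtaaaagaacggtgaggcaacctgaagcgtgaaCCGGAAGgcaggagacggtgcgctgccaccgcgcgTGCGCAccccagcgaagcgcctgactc
Timm50 (GRCm38.p6, chr7:28311997-28312296, minus strand): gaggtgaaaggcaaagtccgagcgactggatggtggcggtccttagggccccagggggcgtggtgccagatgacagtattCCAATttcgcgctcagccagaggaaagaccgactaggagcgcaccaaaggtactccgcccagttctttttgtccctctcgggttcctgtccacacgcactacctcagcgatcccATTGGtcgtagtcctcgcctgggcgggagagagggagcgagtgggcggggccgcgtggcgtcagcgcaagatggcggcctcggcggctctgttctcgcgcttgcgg
Tomm40 (GRCm38.p6, chr7:19715380-19715679, minus strand): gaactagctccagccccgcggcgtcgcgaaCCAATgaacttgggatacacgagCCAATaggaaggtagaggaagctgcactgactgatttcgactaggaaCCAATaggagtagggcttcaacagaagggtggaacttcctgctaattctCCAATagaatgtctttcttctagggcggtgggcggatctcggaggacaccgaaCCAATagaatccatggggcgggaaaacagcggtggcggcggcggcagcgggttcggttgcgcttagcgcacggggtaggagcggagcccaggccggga
Lonp1 (GRCm38.p6, chr17:56626854-56627153, minus strand): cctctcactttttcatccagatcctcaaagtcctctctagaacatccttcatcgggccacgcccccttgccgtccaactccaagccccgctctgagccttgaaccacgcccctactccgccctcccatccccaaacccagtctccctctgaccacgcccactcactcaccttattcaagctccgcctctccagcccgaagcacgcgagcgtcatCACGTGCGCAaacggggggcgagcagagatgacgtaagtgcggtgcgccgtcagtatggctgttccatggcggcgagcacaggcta
Hspe1 (GRCm38.p6, chr1:55087898-55088197, plus strand): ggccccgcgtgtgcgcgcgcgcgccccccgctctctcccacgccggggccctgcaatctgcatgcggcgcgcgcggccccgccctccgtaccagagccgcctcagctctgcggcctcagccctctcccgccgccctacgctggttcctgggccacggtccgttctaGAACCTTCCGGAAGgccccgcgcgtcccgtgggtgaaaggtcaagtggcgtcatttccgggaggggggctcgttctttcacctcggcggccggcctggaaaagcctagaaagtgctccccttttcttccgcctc
Timm8b had 1 ETS and 1 NRF1 half-site match, Timm50 had 2 CCAAT matches, Tomm40 had 5 CCAAT matches and Lonp1 had 1 E-box that overlaps 1 NRF1 half-site. The Hspe1 window held 1 heat shock element that overlaps 2 ETS matches, 1 on each strand. It shared 285 bases with a window of Hspd1, whose transcript runs the other way.

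Promoter windows were found for 31 of the 34 genes. The ETS motif was present in 17 of them (54.8%), against 23.2% of the 5674 genes tested on the array that have a window and 9.93% of all 27025 genes with a window. Of the 4 genes that rose and have a window, 1 held it. The 17 count the shared matches of Hspd1 and Hspe1 once for each gene, and include Timm8a2, which was not tested. The NRF1 half-site was present in 8 of the 31 (25.8%, against 17.6% of tested genes and 8.79% of all genes) and the E-box in 6 (19.4%, against 12.5% and 8.09%). The CCAAT box was present in 9 (29.0%, against 42.6% and 41.1%) and the heat shock element in 3 (9.68%, against 6.96% and 9.04%). Those 3 were Hspd1 and Hspe1, which hold the same element in their shared bases, and Timm9. Timm9, also counted for the E-box, was not tested. No window of the 31 held the letters of the ATF4-CHOP motif, which 2.66% of tested genes and 4.51% of all genes held. These are matches of letters and not sites shown to be bound.

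Of the 34 genes, 32 had a mean signal over the 6 arrays above 53.61, the median of all probe sets, and were tested. Timm8a2, with signals of 0.823, 0.895 and 0.230 in IGF-1 samples and 6.49, 0.574 and 0.295 in controls, lay far below that level. Timm9 lay below it as well, at 31.3, 38.3 and 30.9 in IGF-1 samples and 42.0, 34.4 and 48.9 in controls. The group ranges overlapped in both, and neither gene was tested.

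With IGF-1, 5 of the 32 tested genes rose, 0 fell and 27 did not pass the test. The 5 were Timm8b, Timm50, Tomm40, Hspa9 and Lonp1, and each stands at a different step from the outer membrane to the matrix. Their log2 differences were 0.40 to 0.53. The test was limma on log2(signal + 15.57) with Benjamini-Hochberg adjustment over all 11313 probe sets tested and a threshold of 0.05, and every adjusted p below is from it. Over all 6895 genes tested, 7.05% rose and 8.05% fell, against 15.6% and 0% of these 32. Their median log2 difference was 0.21, against -0.01 for all tested genes. The log2 difference was positive in 24 of the 32 (75%), as it was in 48.7% of all tested genes. In 17 of the 32 (53.1%) all IGF-1 arrays exceeded all control arrays, and in 3 (9.38%) all lay below, against 17.1% and 18.2% of all tested genes. Among the 17, the gap was narrow in Pmpca (167.62 against 167.53) and Timm10b (720.9 against 720.3). Of the 32, 29 passed a filter at the 70th percentile of mean signal, where 10.4% of all genes rose and 10.3% fell. The median standard error of the 32 was 0.11, against 0.13 for all tested genes. Shares without overlap among genes of like signal were not computed.

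Next to the threshold, Timm8a1, Timm17b and Tomm7 had adjusted p of 0.054, 0.055 and 0.056, and all 3 passed when the filter was raised to the 70th percentile of mean signal (0.0448, 0.0438 and 0.0449). Other settings lowered them: without _s_at and _x_at probe sets Tomm7 had 0.17 (adjusted p = 0.383) and Timm17b 0.23 (0.121), and with the mean of probe sets Timm8a1 had 0.15 (0.329).

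The size of the count depended on single arrays. With 1 array left out, 1 to 4 of the 32 rose and 0 fell. Without IGF-1 1 or control 2, 1 of the 32 rose, a smaller share than that of all tested genes (4.6% and 4.02%). Without IGF-1 2 it was 2 (3.6% of all tested genes), and without control 1 it was 4 (6.02%). Without IGF-1 3 or control 3 it was 3 (4% and 4.89%). The log2 difference of 16 of the 27 genes that did not pass, and of 0 of the 5 that rose, moved by over 1.5 times with 1 array left out. This ratio does not compare their stability. The 5 were called for large differences, while near 0 (as for Pam16, 0.01) a small shift exceeds the ratio. Among the 5, Hspa9 ranged from 0.30 to 0.56 with 1 array left out. When the arrays were scaled to their spiked hybridization controls, the median of all tested genes moved to 0.26 and that of the 32 genes to 0.48, and 17 of them rose and 0 fell, against 24.5% and 2.04% of all tested genes. Under this scaling Dnaja3 alone of the 32 kept a negative difference, which went from -0.32 to -0.04 (adjusted p = 0.85). It stayed below the median of all tested genes, which went from -0.01 to 0.26. The values of these genes, positive and negative, are therefore relative to the authors' scaling.

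**Figure D1:**
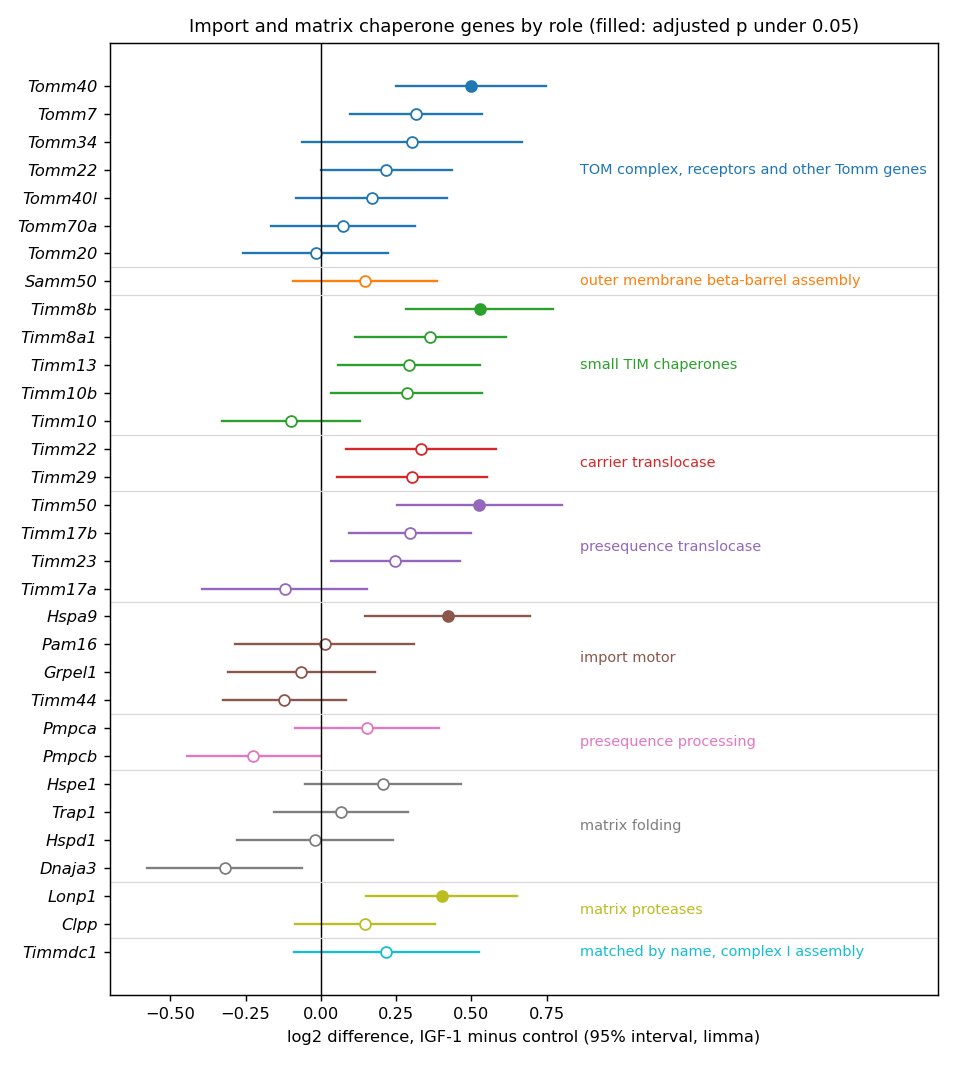
Log2 differences of the 32 tested genes (x axis, IGF-1 minus control, on the log2(signal + 15.57) scale) with 95% intervals from limma, grouped by role. Filled points mark the 5 genes past the threshold, at 0.40 to 0.53. The import motor, presequence processing and matrix folding groups have points on both sides of 0. With scaling to the hybridization controls Dnaja3 alone stays below 0, at -0.04.

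At the outer membrane, Tomm40, which encodes the beta-barrel channel through which proteins enter, had signals of 352, 286 and 327 in IGF-1 samples, against 229, 202 and 237 in controls. All IGF-1 arrays lay above all control arrays. The mean was 322 ± 33.6 with IGF-1 and 223 ± 18.6 in controls (SD, n = 3 each), a log2 difference of 0.50 ± 0.11 (SE, adjusted p = 0.017) or 1.41-fold. The call was lost without IGF-1 1, IGF-1 3 or control 2 (highest adjusted p 0.0634).

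The other 6 Tomm genes did not pass. Tomm20, a presequence receptor and the brightest of the group, had 2733, 2167 and 2081 in IGF-1 samples, against 2260.4, 2407 and 2350 in controls. IGF-1 1 was the highest array and the other IGF-1 arrays were the lowest, and the difference was -0.02 ± 0.11, with a 95% interval of -0.26 to 0.22 (adjusted p = 0.93). None of its 5 tested probe sets passed, and their differences were -0.22 to -0.02. Tomm7, a small subunit that modulates the stability of the complex, had 394, 387 and 336 in IGF-1 samples, against 301, 294 and 290.3 in controls. Its groups did not overlap and it lay just outside the threshold (0.32 ± 0.10, adjusted p = 0.056), and all 4 of its tested probe sets were higher by 0.17 to 0.37. Tomm22, the central receptor, had a difference of 0.22 ± 0.10 (adjusted p = 0.17) with no overlap in its brightest probe set, but its dimmer probe set had -0.14. Tomm70a, the receptor for carrier proteins, had 0.07 ± 0.11 (adjusted p = 0.70), Tomm34, a cytosolic cochaperone of import, 0.30 ± 0.17 (adjusted p = 0.25, and 0.11 without control 3) and Tomm40l, a paralogue of Tomm40, 0.17 ± 0.11 (adjusted p = 0.36).

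The difference for Tomm40 exceeded that for Tomm20 by 0.52 ± 0.12 (SE over arrays), with no overlap of the groups. An exact two-sided permutation test over the arrays gave p = 0.1, the smallest p that 3 against 3 arrays allow, and 0.15 adjusted over the 6 gene pairs compared this way. These pairs were chosen with results of these data known, and the share of other gene pairs without overlap was not computed. With so few arrays no pair could pass this test at the threshold used for genes, so the pair values are descriptive only. Samm50, the core of the beta-barrel assembly machinery, had 704, 824 and 763 in IGF-1 samples, against 737, 733 and 601 in controls. The groups overlapped (0.15 ± 0.11, adjusted p = 0.41, and 0.05 without control 3), and the second probe set had -0.04.

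Among the small TIM chaperones, Timm8b had signals of 281, 324 and 288 in IGF-1 samples, against 208, 217 and 180.3 in controls. Every IGF-1 array lay above every control array. The mean was 298 ± 23.2 with IGF-1 and 202 ± 19.2 in controls (SD, n = 3 each), a log2 difference of 0.53 ± 0.11 (adjusted p = 0.012) or 1.44-fold. This call was kept in 15 of 16 alternatives and lost without IGF-1 2 (adjusted p = 0.0513). In yeast its counterpart Tim8 acts with Tim13 on a small set of inner membrane proteins.

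Timm8a1, the mouse counterpart of the human deafness-dystonia gene, had 296, 263 and 261 in IGF-1 samples, against 228, 184 and 217 in controls. Its groups did not overlap and it missed the threshold narrowly (0.36 ± 0.11, adjusted p = 0.054), but its dimmer probe set had -0.07 ± 0.12. Timm10b, the brightest of the group, had 834, 721 and 782 in IGF-1 samples, against 550.4, 647 and 720.3 in controls. The lowest IGF-1 array was barely above the highest control array (0.28 ± 0.11, adjusted p = 0.12), and all 3 tested probe sets were higher. Timm13 had 0.29 ± 0.11 (adjusted p = 0.093). Timm10, which forms a hexamer with TIMM9, had -0.10 ± 0.10 (adjusted p = 0.56), with overlapping groups.

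Both tested genes of the carrier translocase lay above their controls in every array without passing. Timm22, its channel, had 187, 191 and 217 in IGF-1 samples, against 168, 141 and 155 in controls (0.33 ± 0.11, adjusted p = 0.075). Timm29, which tethers that complex to TOM in human cells, had 202, 182 and 227 in IGF-1 samples, against 166, 166 and 152 in controls (0.30 ± 0.11, adjusted p = 0.097).

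In the presequence translocase, Timm50, the receptor that takes presequences over from TOM, had signals of 163, 144 and 146 in IGF-1 samples, against 113, 87.5 and 101 in controls. The groups did not overlap. The mean was 151 ± 10.6 with IGF-1 and 100.4 ± 12.6 in controls (SD, n = 3 each), a log2 difference of 0.53 ± 0.12 (adjusted p = 0.019) or 1.44-fold. The call was lost without IGF-1 1 or control 2 (highest adjusted p 0.0654) and with no filter on signal (adjusted p = 0.053).

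Timm23, the channel subunit and the brightest of this group, had 718, 691 and 810.0 in IGF-1 samples, against 650 (control 1), 577 and 632 in controls. Its groups did not overlap, but it did not pass (0.25 ± 0.10, adjusted p = 0.11). The paralogues Timm17a and Timm17b, alternative partners of TIMM23, had differences of opposite sign. Scaling to the hybridization controls raised both by a similar amount, to 0.16 for Timm17a and 0.58 for Timm17b. Timm17b had 511, 503 and 569 in IGF-1 samples, against 420.4, 421 and 437 in controls (0.30 ± 0.09, adjusted p = 0.055), and both of its probe sets were higher without overlap. Timm17a had 534, 375 and 471 in IGF-1 samples, against 490 (control 1), 511 and 489 in controls (-0.12 ± 0.12, adjusted p = 0.56), with IGF-1 2 the lowest. The difference between the paralogues was 0.42 ± 0.14 with no overlap (exact permutation p = 0.1, adjusted p = 0.15 over the 6 pairs). Without IGF-1 2, Timm17a had 0.01.

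**Figure D2:**
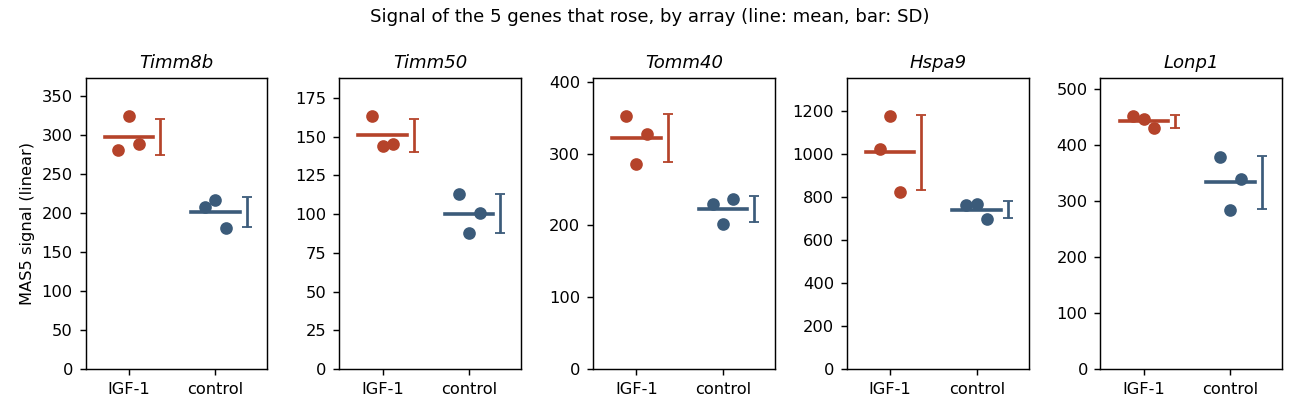
MAS5 signal (linear y axis from 0) of Timm8b, Timm50, Tomm40, Hspa9 and Lonp1 in each array, IGF-1 left and control right, with the mean as a line and the SD as a bar. The groups do not overlap in any of the 5 genes, and the Hspa9 array nearest to the controls is IGF-1 3, at 825 beside control 2 at 766.

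In the import motor, Hspa9, which encodes the mitochondrial HSP70 also called mortalin, had signals of 1020.3, 1174 and 825 in IGF-1 samples, against 761, 766 and 695 in controls. The groups did not overlap, and IGF-1 3 lay nearest to the controls. The mean was 1006 ± 175 with IGF-1 and 741 ± 39.4 in controls (SD, n = 3 each), a log2 difference of 0.42 ± 0.12 (adjusted p = 0.046) or 1.34-fold. A second probe set also rose, by 0.49 ± 0.11 (adjusted p = 0.019), and a dimmer one had 0.18 ± 0.13 (adjusted p = 0.39). The second probe set no longer passed once IGF-1 1, IGF-1 2 or control 2 was left out (adjusted p up to 0.0619). The call of the brightest probe set was lost without any 1 array but IGF-1 3 (highest adjusted p 0.16), and also with no filter (adjusted p = 0.112), no intensity trend (0.0753) or quantile normalization (0.071).

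The partners of HSPA9 in the motor did not pass. Grpel1, its nucleotide exchange factor, had 335, 276 and 322 in IGF-1 samples, against 300 (control 1), 324 and 354 in controls (-0.07 ± 0.11, adjusted p = 0.74). Pam16, which restrains the motor's J protein, had 0.01 ± 0.13 (adjusted p = 0.96) and Timm44, which anchors HSP70 at the channel, had -0.12 ± 0.09 (adjusted p = 0.42). All IGF-1 arrays were below all control arrays for Timm44's brightest probe set. For its dimmest one, which had 0.14, all IGF-1 arrays were above all control arrays. The difference for Hspa9 exceeded that for Grpel1 by 0.49 ± 0.23 with no overlap (exact permutation p = 0.1, adjusted p = 0.15 over the 6 pairs).

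The 2 subunits of the processing peptidase, which cuts presequences off, differed in sign. Scaling to the hybridization controls raised both by a similar amount, to 0.043 for Pmpcb and 0.42 for Pmpca. Pmpcb, the catalytic subunit, had 166, 161 and 172 in IGF-1 samples, against 203, 198 and 190 (control 3) in controls, all IGF-1 arrays being lower (-0.22 ± 0.10, adjusted p = 0.16). Pmpca, which recognises the presequence, had 195, 183 and 168 in IGF-1 samples, against 167, 152 and 168 in controls (0.15 ± 0.11, adjusted p = 0.38). Its lowest IGF-1 array (167.62) was barely above its highest control array (167.53). The difference between the 2 subunits was 0.38 ± 0.09 with no overlap (exact permutation p = 0.1, adjusted p = 0.15 over the 6 pairs). Since 0.1 is the smallest p this permutation test allows, it cannot decide whether the subunits differed. Neither subunit passed the limma test.

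Among the matrix folding genes, 0 of 4 passed. Hspd1, the chaperonin HSP60 and the brightest of the group, had 1494, 1135 and 1306 in IGF-1 samples, against 1483, 1227 and 1271 in controls. The groups overlapped widely and the difference was -0.02 ± 0.12, with a 95% interval of -0.28 to 0.24 (adjusted p = 0.93). Hspe1, the HSP10 lid of the same chaperonin, had 924, 1108 and 890.5 in IGF-1 samples, against 952, 747 and 827.5 in controls (0.21 ± 0.12, adjusted p = 0.27, and 0.11 without IGF-1 2). The difference between these genes, which share the promoter region printed above, was 0.23 ± 0.20 with overlap (exact permutation p = 0.3, adjusted p = 0.3 over the 6 pairs). Trap1, the mitochondrial HSP90, had 0.07 ± 0.10 (adjusted p = 0.70). Dnaja3, a J protein partner of mitochondrial HSP70, had 329, 272 and 274 in IGF-1 samples, against 408, 366 and 330 (control 3) in controls, the lowest difference of the 32 (-0.32 ± 0.12, adjusted p = 0.091). Its second tested probe set had 0.06 ± 0.10.

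Of the matrix proteases, Lonp1, an ATP-dependent protease that clears oxidised and misfolded proteins, had signals of 451, 446 and 430 (IGF-1 3) in IGF-1 samples, against 378, 283 and 339 in controls. The IGF-1 arrays lay close together and above all controls, among which control 2 was the lowest. The mean was 442 ± 11.4 with IGF-1 and 333 ± 47.5 in controls (SD, n = 3 each), a log2 difference of 0.40 ± 0.11 (adjusted p = 0.039) or 1.32-fold. This call was lost without any 1 array but control 1 (highest adjusted p 0.121), and also with no filter (adjusted p = 0.0825) or no intensity trend (0.0604). Clpp, the other protease, had 0.15 ± 0.11 (adjusted p = 0.40) with overlapping groups, and the difference for Lonp1 exceeded it by 0.26 ± 0.11 (exact permutation p = 0.2, adjusted p = 0.24 over the 6 pairs). Timmdc1, which carries a Timm symbol but encodes an assembly factor of respiratory complex I, had 0.22 ± 0.14 (adjusted p = 0.33, and 0.12 without IGF-1 1).

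**Figure D3:**
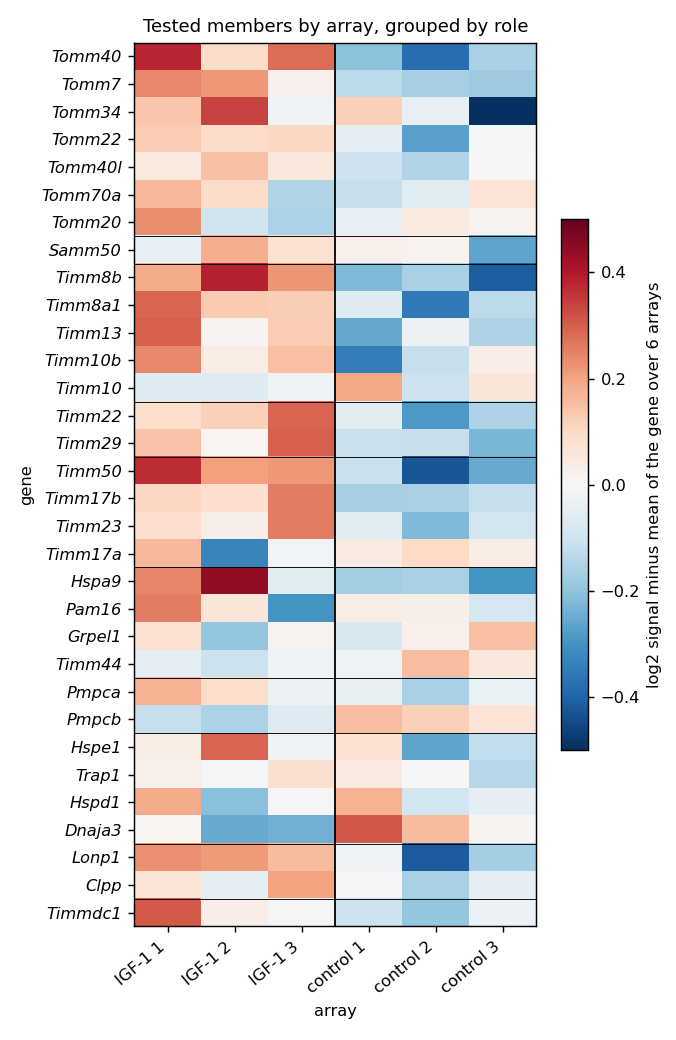
Log2(signal + 15.57) of the 32 tested genes (rows, grouped by role) in each array (columns, IGF-1 left), minus the gene's mean over the 6 arrays, with the colour scale ending at -0.5 and 0.5. In IGF-1 1, 28 of the 32 genes lie above their own mean, in IGF-1 2 there are 22 and in IGF-1 3 there are 18, against 8 to 10 in the control arrays.

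Within the IGF-1 group the arrays were not alike. The median of the 32 centred log2 values was 0.15 in IGF-1 1, 0.07 in IGF-1 2 and 0.04 in IGF-1 3, against -0.05, -0.13 and -0.09 in controls 1, 2 and 3. The medians of the groups did not overlap, and the median log2 difference was 0.16 to 0.21 with each array left out.

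Of the 17 genes with several tested probe sets, 11 had differences of 1 sign in all of them. Over all 58 tested probe sets of the 32 genes, 6 rose (10.3%) and 0 fell, against 6.82% and 8.28% of all 11313 tested probe sets, and 2 of the 6 belonged to Hspa9. The probe sets disagreed in sign for Samm50, Timm44, Timm8a1, Tomm22, Tomm70a and Dnaja3, so that for these genes the direction rests on the probe set chosen. With scaling to the hybridization controls the signs still disagreed for Dnaja3 alone.

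**Figure D4:**
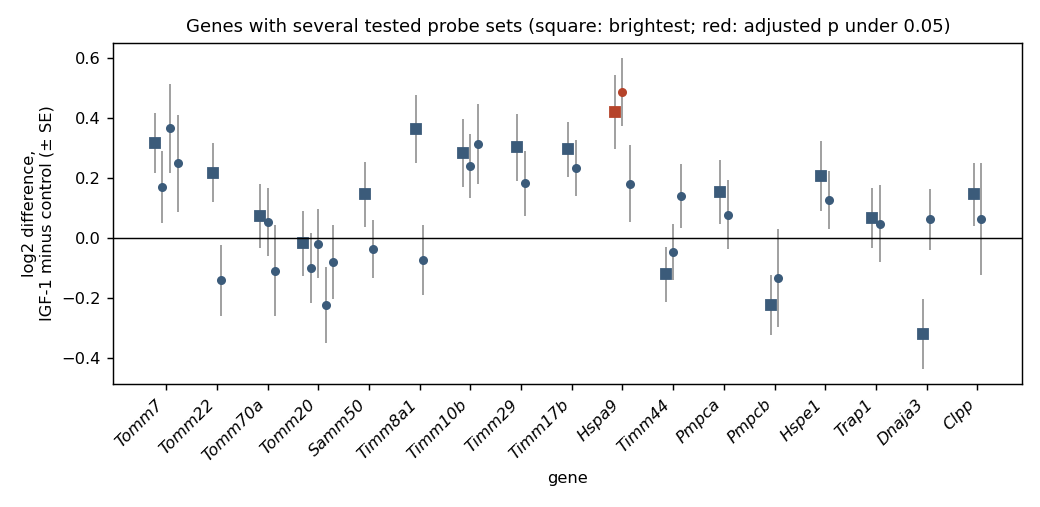
Log2 differences (y axis, IGF-1 minus control, ± SE) of every tested probe set of the 17 genes that have several, with the brightest as a square and those past the threshold in red. Red points occur for Hspa9 alone, and the 5 probe sets of Tomm20 all lie below 0 (all above 0 with scaling to the hybridization controls).

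A pair of probe sets is annotated to both Prickle4 and Tomm6 and can be given to neither gene, TOMM6 being a small TOM subunit. The first had 1008, 1140.4 and 1189 in IGF-1 samples, against 389, 399 and 424 in controls, a log2 difference of 1.43 ± 0.10 (adjusted p = 2.2e-05). The second had 1115, 1173 and 1616 in IGF-1 samples, against 805, 891 and 682 in controls (0.69 ± 0.15, adjusted p = 0.012, lost with no filter on signal). Both rose by more than any of the 32 genes. The probe set shared by Tomm5 and Gm8069 had -0.02 ± 0.11 (adjusted p = 0.92), and of those shared by Dnajc19 and its pseudogene the 1 tested had 0.16 ± 0.17 (adjusted p = 0.58).

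Other genes of import and mitochondrial proteostasis came from a list of 32 symbols, of which 28 were on the array and 27 were tested. Of these 5 rose (18.5%), 1 fell (3.7%) and 21 did not pass, beside 7.05% and 8.05% of all tested genes, and their median log2 difference was 0.09 (0.38 with scaling to the hybridization controls, where the median of all tested genes was 0.26). Chchd10, an intermembrane space protein of the twin CX9C family, had 1175, 1134 and 1075 in IGF-1 samples, against 515, 585 and 600.4 in controls (0.98 ± 0.09, adjusted p = 0.00024). Mtch1, a carrier-like protein of the outer membrane, rose by 0.74 ± 0.13 (adjusted p = 0.0058). Vdac3, a metabolite pore, rose too (0.38 ± 0.10, adjusted p = 0.032), but did not pass once control 2 or one of the IGF-1 arrays was left out (adjusted p up to 0.103), or with no filter or no intensity trend.

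In 8 of the 27 (29.6%, against 17.1% of all tested genes) all IGF-1 arrays exceeded all control arrays, and in 2 (7.41%, against 18.2%) all lay below. Of these, 4 did not pass the test. Romo1, a small inner membrane protein, had 0.31 ± 0.11 (adjusted p = 0.074), Gfer, the oxidase that recharges CHCHD4, 0.19 ± 0.08 (adjusted p = 0.16) and Phb2, a prohibitin, 0.18 ± 0.09 (adjusted p = 0.18). Hscb, a cochaperone of iron-sulfur cluster assembly, had -0.17 ± 0.10 (adjusted p = 0.27), which became 0.11 with scaling to the hybridization controls.

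The list held transcription factors linked to the mitochondrial stress response in mammals. Atf5 had 821, 800 (IGF-1 2) and 763 in IGF-1 samples, against 568, 524 and 589.5 (control 3) in controls (0.49 ± 0.09, adjusted p = 0.0063). Ddit3, which encodes CHOP, had a difference of 0.55 ± 0.12 and rose (adjusted p = 0.014; leaving out IGF-1 2 gave 0.0596). Atf4 did not pass (0.09 ± 0.10, adjusted p = 0.56). Nfe2l2, which encodes the oxidative stress factor NRF2, fell by 0.70 (adjusted p = 0.0025), with 231, 232 and 249 in IGF-1 samples, against 358, 399 and 431 in controls. Clpx, the partner of CLPP that unfolds its substrates, had -0.38 ± 0.16 (adjusted p = 0.14), and Chchd4, the oxidoreductase that traps small TIM proteins, -0.18 ± 0.10 (adjusted p = 0.29), which became 0.10 with scaling to the hybridization controls.

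**Figure D5:**
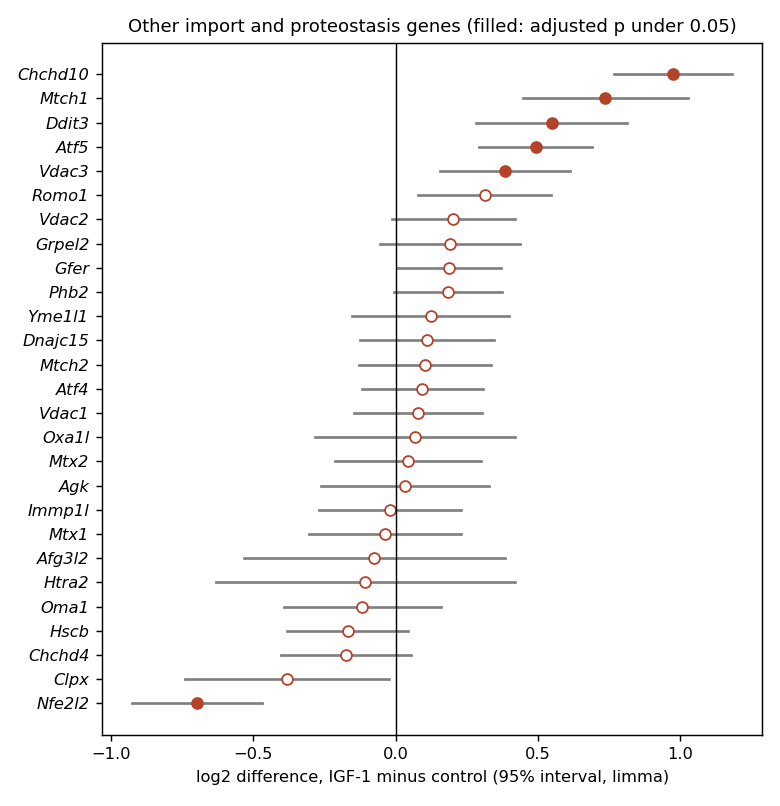
Log2 differences (x axis, IGF-1 minus control) with 95% intervals of the 27 tested genes of the list of other import and proteostasis genes, with filled points past the threshold. Chchd10, Mtch1, Ddit3, Atf5 and Vdac3 are filled to the right of 0 and Nfe2l2 to the left.

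The median signal of the arrays was 49.96 to 55.4, and the mean log2 signal of the spiked hybridization controls was 7.60 to 7.74 in IGF-1 arrays, against 7.83 to 8.10 in control arrays, with no overlap. The arrays had correlations of log2 signal of 0.978 to 0.984 within groups and 0.956 to 0.965 between them. Plasma cell markers gave strong signal, with 7 of 7 on the array above the filter, but their summed signal was lower with IGF-1 (10443 to 10881, against 11291 to 12216 in controls), and 2 of 7 fell (28.6%, against 8.05% of all tested genes). Neutrophil markers gave strong signal as well, with all 9 on the array above the filter. The brightest, S100a9, had a mean over the 6 arrays of 6872, against 4635 for Xbp1, the brightest plasma cell marker. Of the 9 neutrophil markers 1 fell (11.1%), with sums of 23301 to 25932 in IGF-1 samples and 25112 to 29987 in controls. Of 7 tested macrophage and monocyte markers, out of 8 on the array, 3 fell (42.9%) and 1 rose (14.3%, against 7.05%), with sums of 4797.5 to 6563 in IGF-1 samples and 5572 to 7347 in controls. Of these calls, that of the neutrophil marker Ltf and, among macrophage markers, those of Cd68, Cd14 and Itgam were lost with 1 array left out. With scaling to the hybridization controls, Csf1r alone of the 6 markers that fell still passed (adjusted p = 0.0074), and Tnfrsf17, Slamf7, Ltf, Cd14 and Itgam did not (0.063 to 0.25). The list medians then turned to 0.09 for plasma cell markers (-0.19 with the authors' scaling) and 0.09 for neutrophil markers (-0.20), and that of macrophage and monocyte markers was -0.05 (-0.34). All 5 T cell markers on the array lay below the filter, as did 4 of 5 stromal and 2 of 4 erythroid markers. In such bulk samples fewer cells of a type and less RNA per cell cannot be told apart, and the part of these cells in the differences above was not tested.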

How the data were processed

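The deposited values are linear signal intensities of probe sets. The submitters' processing notes name MAS5 and GCOS as the authors' programs, while versions, scaling target and scan dates were not given in the sources used here. The trimmed mean without the lowest and highest 2% of values was 150.0 in every array, so arrays had been scaled to 1 level, and each difference is relative to it.

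A pseudocount of 15.57, the 25th percentile over the table, was added before log2, which understates changes of dim probe sets. After 64 control probe sets were left out of 22690, the 11313 with a mean over the median (53.61) were tested with limma 3.58.1 in R 4.3.3 (lmFit, eBayes with trend, two-sided), and adjusted by Benjamini-Hochberg. Log2 differences are given with standard errors, and intervals at 95%. The 691 probe sets with several symbols named no gene. Identifiers of 34 of 34 genes matched the RefSeq table of GRCm38.p6, which also gave the promoter windows. The fit was also run on simulated data with independent noise in each probe set. That simulation does not bear on calls that depend on single arrays. Python 3.11.15 and matplotlib 3.10.9 were used for tables and plots.

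The genes and lists were chosen with earlier results of these data known. By the rule for named genes, each tested gene is described, with values in every array for those that rose and the brightest of each role; further such values were chosen after seeing the data. Other pathway genes are named where they passed or where their groups did not overlap, and Atf4, Clpx, Chchd4 and the pairs of genes were picked after their values were seen. Alternatives covered the pseudocount, filter, normalization, trend, replicate block, choice of probe set and each array left out. The number of arrays limits the precision.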

Additional observations from a re-analysis of the deposited data

How the results depend on the processing

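None of the tested import and matrix chaperone genes fell in any of the 16 alternatives, whereas the number that rose changed. It was 5 of 32 with a pseudocount of 1 or one at the median signal (6.96% and 7.14% of all genes rose). Without _s_at and _x_at probe sets it was 5 of 31 (7.15%). With quantile normalization or the mean of probe sets it was 6 of 32 (7.4% and 8.05%). With the filter at the 70th percentile it was 7 of the 29 tested, where Timm50 was not tested and 10.4% of all genes rose. It was 2 of 34 with no filter, where 287 of all genes rose (2.32%) and 286 fell (2.31%). With no intensity trend it was 3 of 32, where 5.74% of all genes rose. Scaling to the hybridization controls gave 17 that rose and a median of 0.48, while 1691 of all genes rose (24.5%) and 141 fell (2.04%). With 1 array left out, 1 to 4 of the 32 tested genes rose and 0 fell, and their median was 0.16 to 0.21. Without IGF-1 1 or control 2 the 1 that rose was a smaller share than among all genes (4.6% and 4.02%). In these fits 248 to 415 of all genes rose and 286 to 483 fell. Fewer arrays enter each of them. The labels do not say if the replicate numbers pair the samples. Same-numbered deviations had correlations of 0.12, -0.03 and 0.13. Those of replicates 1 and 3 were the highest of all combinations, while IGF-1 2 correlated best with control 3 (0.02). With so few arrays these values do not settle whether samples were paired. With the replicate block 6 of the 32 tested genes rose, the added one being Timm8a1 (adjusted p = 0.0496). In that fit 478 of all genes rose (6.93%) and 589 fell (8.54%). Genes that did not pass changed sign as follows. Under scaling to the hybridization controls Grpel1 had 0.21, Hspd1 0.27, Pmpcb 0.043, Timm10 0.18, Timm17a 0.16, Timm44 0.16 and Tomm20 0.27. With 1 array left out, Grpel1 ranged from -0.12 to 0.014, Hspd1 from -0.12 to 0.078, Pam16 from -0.11 to 0.16, Timm17a from -0.23 to 0.014 and Tomm20 from -0.14 to 0.057. The scaling multiplied all signals of an array by 1 factor. It moved the median of all tested genes from -0.01 to 0.26, and the sign changes under it are part of this common shift. The cause of the changes with 1 array left out was not tested.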
